A study of Mus musculus with 59 samples.

Results

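Ribosomal protein genes were taken as all protein-coding mouse genes whose symbols begin with *Rpl*, *Rps*, *Mrpl* or *Mrps* and a digit, leaving out the *Rps6k* kinases. The annotation (RefSeq, GRCm38/mm10) held 165 such genes among 21774 protein-coding genes, of which 53 were *Rpl*, 34 *Rps*, 49 *Mrpl* and 29 *Mrps*. The symbol rule brings in paralogs such as *Rpl32l* and *Rps27l* and a gene for a binding protein, *Rps19bp1*. It leaves out ribosomal proteins with other names, such as *Rplp0*, *Rpsa* and *Dap3*. Nothing measured in these livers entered the rule. ChIP-seq, which sequences the DNA that an antibody pulls down with a protein, had mapped BCL6, PPARα and PPARδ in mouse liver. The lists come from male C57BL/6 mice without a modified allele, fed ad libitum or fasted overnight, and, for BCL6 only, from fed male C57BL/6 mice of genotype Bcl6 fl/fl. The floxed mice carry *Bcl6* alleles that Cre can delete and served as controls for a hepatocyte knockout, whose Cre the albumin promoter drives. Each of the 7 peak lists pooled 3 livers, 21 libraries of the 59 in the series.

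Ribosomes make all cellular protein, and the cytosolic ribosome is built from a large subunit, with the RPL proteins, and a small one, with the RPS proteins. A separate ribosome inside mitochondria translates the few proteins that the mitochondrial genome encodes for the respiratory chain, and its MRPL and MRPS proteins are made from nuclear genes. Many cytosolic ribosomal protein mRNAs begin with a C followed by pyrimidines, the 5′ TOP sequence through which growth signals tune their translation. PPARα is the nuclear receptor that turns on fatty acid oxidation in the fasted liver. PPARδ is a close relative, BCL6 is a repressor with zinc fingers, and all 3 are known for their sites near genes of lipid metabolism.

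A peak was assigned to the gene with the nearest transcription start site (TSS) within 100 kb of the peak center, and the promoter was taken as the 1000 bp before a TSS and the 100 bp after it. Of 102931 peaks in the 7 lists, 365 lay nearest to a ribosomal protein gene. Peaks of one factor whose centers were within 200 bp were joined across feeding states, and the sites of the 3 factors were then joined by the same distance, which left 170 joined sites near ribosomal protein genes among 38501. A peak was assigned to 90 of the 165 genes (54.5%, 95% interval 46.9 to 62%), against 10880 of 21774 over all genes. A peak in the promoter was found for 64 (38.8%, 31.7 to 46.4%, all genes 21.8%), and 67 had neither (40.6%, 33.4 to 48.2%, all genes 48.9%). The lists hold positions only, so the height of a peak, the spread between livers and the depth are unknown here. No test between groups could be made. Ranges beside a share are its 95% interval by the Wilson method and cover counting error only.

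The first 6 promoters below are examples of PPARα peaks close to the TSS, and the last, of *Mrps27*, had no PPARα peak and is shown for PPARδ. Each run is the sequence before the annotated TSS, read 5′ to 3′ in the direction of transcription from the RefSeq genome, and all but the last end at the base before the TSS. The letters are in lower case, and capitals mark an exact match to the ETS word CCGGAAGT on either strand, which the runs of *Rpl30*, *Rpl6*, *Mrpl12* and *Mrpl39* lack. The first 4 were called for PPARα in fasted livers only and the fifth in fed livers only. *Rpl41* held PPARα in both states, and BCL6 in fasted C57BL/6 and fed Bcl6 fl/fl livers but not in the fed C57BL/6 list. *Mrps27* held PPARδ in fed livers only, and its run stops just short of the annotated gene start, which precedes the TSS used here.
*Rpl37*, chr15:5116563-5116612, plus strand: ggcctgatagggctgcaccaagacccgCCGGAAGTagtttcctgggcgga
*Rpl30*, chr15:34443277-34443426, minus strand: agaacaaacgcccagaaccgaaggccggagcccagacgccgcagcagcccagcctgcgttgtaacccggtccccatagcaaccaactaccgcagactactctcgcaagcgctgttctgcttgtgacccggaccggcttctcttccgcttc
*Rpl6*, chr5:121204351-121204500, plus strand: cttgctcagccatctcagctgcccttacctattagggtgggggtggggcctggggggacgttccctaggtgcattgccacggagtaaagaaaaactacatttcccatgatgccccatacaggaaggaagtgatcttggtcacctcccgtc
*Mrpl12*, chr11:120484487-120484636, plus strand: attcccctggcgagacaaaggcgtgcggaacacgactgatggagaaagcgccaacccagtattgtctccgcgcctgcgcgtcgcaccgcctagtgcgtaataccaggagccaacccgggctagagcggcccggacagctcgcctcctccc
*Mrpl39*, chr16:84735245-84735394, minus strand: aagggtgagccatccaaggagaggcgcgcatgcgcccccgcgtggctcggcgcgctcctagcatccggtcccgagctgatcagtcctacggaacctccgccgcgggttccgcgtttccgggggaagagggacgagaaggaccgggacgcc
*Rpl41*, chr10:128549169-128549318, minus strand: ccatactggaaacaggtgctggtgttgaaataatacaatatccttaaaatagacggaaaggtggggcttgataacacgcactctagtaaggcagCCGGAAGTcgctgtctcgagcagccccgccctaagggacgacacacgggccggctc
*Mrps27*, chr13:99344686-99344764, plus strand: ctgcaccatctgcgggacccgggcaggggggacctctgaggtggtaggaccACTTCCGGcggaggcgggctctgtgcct

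PPARα gave most of the peaks, and more in fasted than in fed livers. In fasted livers 127 PPARα peaks lay nearest to 79 ribosomal protein genes, against 78 peaks at 42 genes in fed livers. Among all protein-coding genes, 43.5% had such a peak in the fasted list and 32.0% in the fed list, against 47.9% and 25.5% of the ribosomal protein genes. BCL6 had 45 peaks at 26 genes in fed and 33 at 23 genes in fasted livers, 15.8% and 13.9% of the ribosomal protein genes against 25.9% and 18.9% of all genes. In fed Bcl6 fl/fl livers 57 BCL6 peaks lay near 37 genes (22.4%, all genes 28.6%). PPARδ had 19 peaks at 16 genes in fed livers and 6 at 6 genes in fasted livers, 9.70% and 3.64% against 17.0% and 7.70%. The stretches of genome nearest to a ribosomal protein TSS add up to 6.84 Mb of 1555 Mb. Per Mb of such genome, the fasted PPARα list held 18.6 peaks near ribosomal protein genes and 16.3 near all genes, a ratio of 1.14. The ratio was 0.982 for fed PPARα, between 0.817 and 0.940 for the BCL6 lists, and 0.687 and 0.666 for fed and fasted PPARδ.

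Promoter peaks were most frequent in the PPARα lists. Fasted PPARα peaks lay in the promoters of 55 of 165 ribosomal protein genes (33.3%, interval 26.6 to 40.8%), against 19.5% of all protein-coding genes. In fed livers 19 promoters held one (11.5%, 7.5 to 17.3%), against 8.00% of all genes. BCL6 was listed at 3 promoters in each state of the C57BL/6 livers, 1.82% against 2.66% of all genes fed and 1.90% fasted, and at 9 in fed Bcl6 fl/fl livers (5.45% against 5.17%). PPARδ was listed at 3 promoters in fed livers (1.82% against 1.90%) and at 2 in fasted livers (1.21% against 0.808%). The interval held the share of all genes in each BCL6 and PPARδ list and in the fed PPARα list. Only in the fasted PPARα list did it lie above that share.

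**Figure D1:**
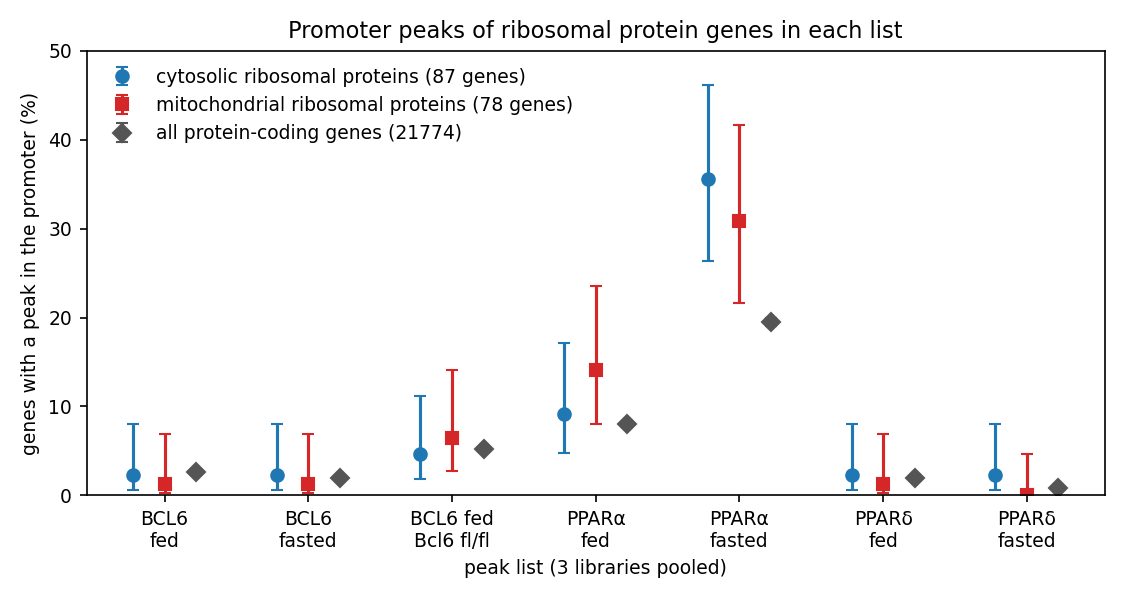
Share of genes with a peak center in the promoter (%, y axis) in each of the 7 peak lists (x axis), for cytosolic and mitochondrial ribosomal protein genes and all protein-coding genes; bars are 95% Wilson intervals. In the fasted PPARα list 35.6% of cytosolic and 30.8% of mitochondrial genes lie above the 19.5% of all genes, and in the BCL6 and PPARδ lists all shares stay under 7%.

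PPARα promoter peaks were found at genes of both ribosomes. Of the 87 cytosolic genes, 31 (35.6%, 26.4 to 46.1%) had a PPARα promoter peak in fasted and 8 (9.20%) in fed livers. Of the 78 mitochondrial genes, 24 (30.8%, 21.6 to 41.7%) had one in fasted and 11 (14.1%) in fed livers. The intervals of both sets overlap in either state. From fed to fasted lists the counts went from 5 to 18 of 53 *Rpl* genes, from 3 to 13 of 34 *Rps*, from 9 to 17 of 49 *Mrpl* and from 2 to 7 of 29 *Mrps*. Over all genes the share went from 8.00% to 19.5%. In the fed list the intervals of the cytosolic set (4.73 to 17.1%), *Rpl*, *Rps* and *Mrps* held the share of all genes. Those of the mitochondrial set (8.06 to 23.5%) and *Mrpl* (9.98 to 31.4%) began above it. In the fasted list only the interval of *Mrps* (12.2 to 42.1%) held it.

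Taken gene by gene, 58 ribosomal protein genes had a PPARα promoter peak in either state, 39 in fasted livers only, 16 in both and 3 in fed livers only. The fasted-only share was 67.2% (54.4 to 77.9%) against 60.8% of all genes with a PPARα promoter peak. All 8 cytosolic promoters of the fed list were also in the fasted list, with 23 more in the fasted list. Of the 11 mitochondrial promoters of the fed list, 8 were also in the fasted list, and 16 more were listed only there. Over all genes 89.0% of the promoters of the fed list were also in the fasted list. The intervals of the cytosolic share (67.6 to 100%) and the mitochondrial share (43.4 to 90.3%) both held this value. The fed-only genes were *Mrpl22*, *Mrps21* and *Mrpl39*, all parts of the mitochondrial ribosome, with site centers at −55, −69 and −117 bp from the TSS. Over all genes, 192 of the 4441 with a PPARα promoter peak were fed only.

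The 16 promoters with PPARα in both states held 5 genes of the cytosolic large subunit (*Rpl13a*, *Rpl17*, *Rpl32*, *Rpl36*, *Rpl41*), 3 of the small one (*Rps3*, *Rps19*, *Rps26*), 7 of the mitochondrial large subunit (*Mrpl1*, *Mrpl10*, *Mrpl16*, *Mrpl24*, *Mrpl30*, *Mrpl45*, *Mrpl52*) and 1 of its small one (*Mrps18b*). *Rps3*, whose protein sits at the mRNA entry channel of the ribosome, had the center at +5 bp fed and −49 bp fasted. *Mrpl45* had it at 0 bp fed and −10 bp fasted. Most of these pairs lay close together, and *Rpl13a*, at −917 bp fed and −871 bp fasted, had them farthest upstream. *Mrpl10*, *Mrpl30* and *Mrps18b* share their upstream region with a gene on the other strand, *Lrrc46*, *Mitd1* and *Ppp1r10*.

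The genes with a fasted-only PPARα site closest to the TSS came from both ribosomes. *Mrpl34* and *Rps27l*, the latter a paralog of a small subunit protein, had the center 1 and 2 bp downstream. *Rpl37* and *Rpl30* had it at −17 and −18 bp. *Mrps23* and *Mrpl12* followed at −21 and −23 bp, *Rpl34* at +23 bp, *Rpl6* at −28 bp and *Rps19bp1*, whose product binds a small subunit protein, at −31 bp. None of these promoters held a PPARα peak in the fed list, and *Rpl37* alone among them also held a peak of BCL6.

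**Figure D2:**
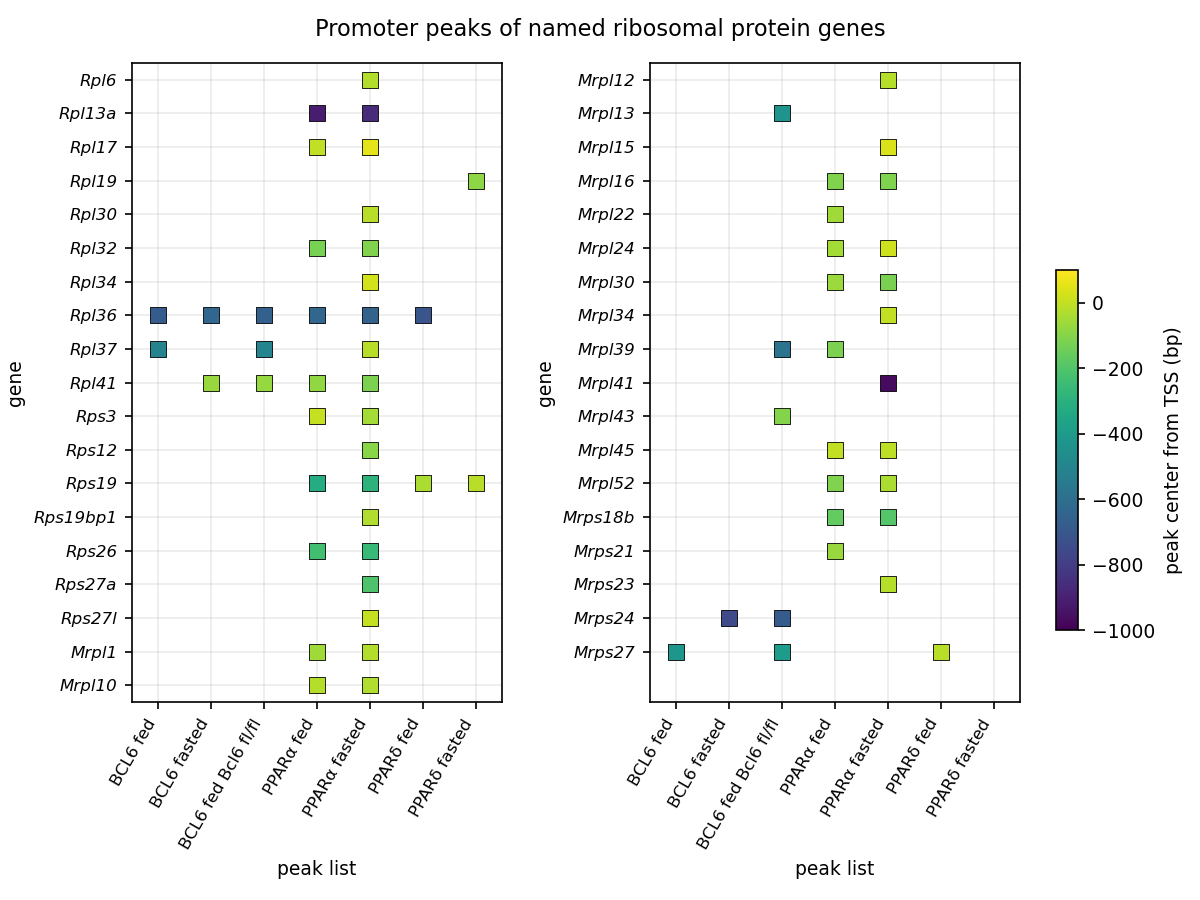
Each square is a peak center in the promoter of a ribosomal protein gene named in the text (rows), in each of the 7 lists (columns), colored by the distance of the center from the TSS in bp. Some rows were named because their fasted-only PPARα center lies nearest the TSS, so nearness in the fasted PPARα column is partly fixed by that choice. The squares of *Rpl36* in 6 lists lie more than 600 bp upstream.

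Over all PPARα promoter peaks of these genes, the median center lay 63 bp upstream of the TSS in fasted livers, against 97 bp over all genes, and 83 bp upstream in fed livers, against 117 bp. In fasted livers 34 of 55 centers fell within 200 bp upstream of the TSS (61.8%, 48.6 to 73.5%, all genes 51.8%) and 11 downstream of it (20.0%, 11.6 to 32.4%, all genes 19.1%), so that both intervals held the share of all genes. The median was −94 bp for the 31 cytosolic and −33.5 bp for the 24 mitochondrial promoters. *Mrpl41*, at −967 bp, was the farthest. Its promoter region is shared with *Pnpla7*, a lysophospholipase gene that starts 935 bp upstream on the other strand.

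A start site of another gene lay within 1000 bp upstream on the opposite strand for 39 of 165 ribosomal protein genes (23.6%), against 8.64% of all genes. A peak in such a shared region cannot be given to either gene. Fasted PPARα promoter peaks were at 11 of these 39 (28.2%, 16.5 to 43.8%) and at 44 of the other 126 (34.9%, 27.2 to 43.6%). Over all genes they were more frequent in the shared arrangement, 39.9% against 17.6%.

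The base composition of the promoters differed from that of all genes, and with it the share of PPARα peaks to be set beside theirs. From 250 bp before to 50 bp after the TSS, 122 of 165 ribosomal protein promoters (73.9%) were CpG-rich, against 45.7% of all genes. CpG-rich here means a GC content of at least 50% and an observed to expected CpG ratio of at least 0.6, a split added after the shares were known. Among CpG-rich promoters the fasted PPARα list covered 41 of 122 ribosomal protein genes (33.6%, 25.8 to 42.4%) and 30.4% of all genes. The fed list covered 14 of 122 (11.5%, 6.96 to 18.3%) and 10.2% of all genes. Among the other promoters it was 14 of 43 (32.6%, 20.5 to 47.5%) against 10.4% of all genes in fasted livers. The part of base composition in the shares was not tested further.

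The letters of these promoters were searched for words of known factors, on both strands. The ETS word CCGGAAGT was in 28 ribosomal protein promoters (17.0%) and in 5.29% of all promoters of the same length. YY1's word AAGATGGC was in 19 (11.5%) against 3.20%, and among them 13 were mitochondrial. The SP1 word GGGCGG was in 88 (53.3%) against 47.0%, and the NRF1 word GCGCATGCG in 10 (6.06%) against 2.31%. CRE words (TGACGTCA) were in 4.85% against 2.45%, words of the PPAR type (DR1, 2 copies of AGGTCA with 1 bp between them and up to 2 mismatches) in 4.85% against 3.26%, E-box words (CACGTG) in 7.88% against 7.94% and single AGGTCA words in 13.9% against 14.2%. Below the share of all promoters were TATAAA (9.09% against 13.1%), the STAT word TTCNNNGAA (6.67% against 7.69%) and the BCL6 word TTCCTAGAA with up to 1 mismatch (4.85% against 7.88%). A C at the annotated TSS followed by 4 pyrimidines was found at 13 of 87 cytosolic promoters (14.9%) and 1 of 78 mitochondrial ones (1.28%), against 2.19% of all. Such a run had to begin at the annotated base, where 40 cytosolic promoters had a pyrimidine (46.0%, all 23.3%). A start annotated some bases off would be missed, so these are not counts of 5′ TOP mRNAs. Over the 165 promoters, the intervals of ETS, YY1 and NRF1 words lay above the share of all promoters. That of CRE words (2.48 to 9.27%) began just above it. The intervals of all other words of known factors held it. Among these were SP1 (45.7 to 60.8%), DR1 (2.48 to 9.27%), STAT (3.76 to 11.5%) and BCL6 (2.48 to 9.27%). No difference from all promoters is shown for those words. ETS words were in 11 of the 58 promoters with a PPARα peak (19.0%, 10.9 to 30.9%) and in 17 of the 107 without (15.9%, 10.2 to 24.0%). YY1 words were in 2 of 58 (3.45%, 0.951 to 11.7%) and in 17 of 107 (15.9%, 10.2 to 24.0%), and these intervals overlap. Over all genes with a PPARα promoter peak, ETS words were in 11.6% and YY1 words in 4.30%, both above the shares of all promoters, so the order for YY1 was the reverse of that within the ribosomal protein genes. The promoters of all genes were not matched to these in base composition, and its part in the word shares was not tested. A match is a run of letters and not a bound site.

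PPARs bind DNA with RXR at DR1 words. With the same allowance of mismatches, such a word lay within 100 bp of the center in 2 of 50 PPARα sites at ribosomal protein promoters (4.00%, 1.1 to 13.5%), against 6.21% of all PPARα promoter sites. Outside promoters it was in 21 of 96 (21.9%, 14.8 to 31.1%), against 15.3%. The promoter pair was *Rpl34* and *Rpl36*. ETS words showed the other order, with 8 of 50 promoter sites (16.0%, all 9.51%) and 0 of 96 other sites (Wilson upper bound 3.85%, all 0.587%).

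These runs show DR1 words in capitals at PPARα sites away from promoters, all given on the plus strand. The sites near *Rps12*, *Rps16*, *Mrpl15* and *Mrpl45* were also listed for BCL6. *Rpl31*'s site lies 40518 bp downstream of its TSS, in an intron of *Tbc1d8*, a gene for a GTPase-activating protein family member. *Rpl32l*'s lies 12499 bp downstream in an intron of *Map7*, which codes for a microtubule-associated protein.
*Rpl31*, chr1:39408329-39408359, plus strand: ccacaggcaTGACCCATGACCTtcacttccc
*Rpl32l*, chr10:20220934-20220964, plus strand: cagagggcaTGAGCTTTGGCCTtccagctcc
*Rps12*, chr10:23691523-23691553, plus strand: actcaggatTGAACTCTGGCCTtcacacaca
*Rps16*, chr7:28353577-28353607, plus strand: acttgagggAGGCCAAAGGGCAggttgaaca
*Mrpl15*, chr1:4791708-4791738, plus strand: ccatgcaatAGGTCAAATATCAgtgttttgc
*Mrpl45*, chr11:97331320-97331350, plus strand: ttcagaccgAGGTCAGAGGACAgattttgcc

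Sites were then split by the feeding state in which they were called. Of 146 PPARα sites near ribosomal protein genes, 68 were called in fasted livers only (46.6%, 38.7 to 54.7%, all PPARα sites 37.1%), 59 in both states (40.4%, all 50.9%) and 19 in fed livers only (13.0%, all 12.0%). In promoters 32 of 50 were fasted only (64.0%, 50.1 to 75.9%, all 60.4%), 15 both (30.0%, all 34.6%) and 3 fed only (6.00%), against 218 of 4363 such sites over all genes. Outside promoters the fasted-only sites were 36 of 96 (37.5%, 28.5 to 47.5%), against 33.0% of all such sites. The fasted-only share of all sites lay inside the interval both within promoters and outside them. In all, 55 of 170 joined sites near ribosomal protein genes were in promoters (32.4%, 25.8 to 39.7%), against 14.0% of the 32714 joined sites within 100 kb of a TSS. Fasted-only PPARα sites were 43 of 83 near cytosolic genes (51.8%, 41.2 to 62.2%) and 25 of 63 near mitochondrial genes (39.7%, 28.5 to 52.0%), and these intervals overlap. At promoters they were 21 of 29 cytosolic and 11 of 21 mitochondrial sites.

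BCL6 had 57 sites near these genes, 24 in fed livers only (42.1%, 30.2 to 55.0%, all 43.7%), 21 in both states (36.8%, all 44.6%) and 12 in fasted livers only (21.1%, 12.5 to 33.3%, all 11.7%). PPARδ had 22 sites, 16 in fed livers only (72.7%, 51.8 to 86.8%, all 70.7%), 3 in both (13.6%, all 19.4%) and 3 in fasted livers only (13.6%, all 9.96%). With 1 pooled list for each state, a site missing from a list is not shown to be unbound, and a difference between states in depth cannot be told apart from one in binding.

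**Figure D3:**
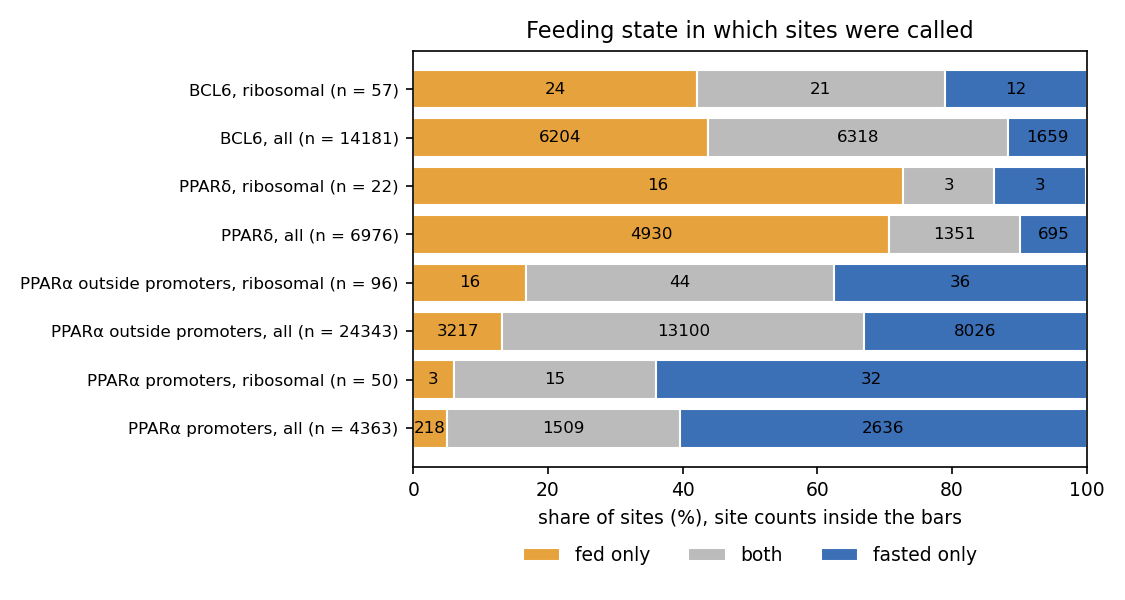
Share of sites (%, x axis) called in fed livers only, both states or fasted livers only, for each factor, near ribosomal protein genes and within 100 kb of any TSS; numbers in the bars are site counts. PPARα sites are fasted only for 32 of 50 ribosomal protein promoter sites and PPARδ sites fed only for 16 of 22.

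Most joined sites near ribosomal protein genes held PPARα alone, 98 of 170 (57.6%, 47.4% of all joined sites within 100 kb of a TSS). BCL6 and PPARα shared 32 (18.8%, all 22.0%), BCL6 alone had 18 (10.6%, all 9.23%), and PPARα and PPARδ shared 9 (5.29%, all 6.37%). PPARδ alone had 6 (3.53%, all 2.87%), no site held BCL6 and PPARδ without PPARα (all 0.211%), and 7 held all 3 factors (4.12%, 2.01 to 8.25%, all 11.9%). BCL6 was at 2 of 50 PPARα promoter sites of these genes (4.00%, 1.1 to 13.5%), against 12.5% of all PPARα promoter sites, and at 37 of 96 outside promoters (38.5%, 29.4 to 48.5%, all 43.3%).

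*Rpl36*, a large subunit gene, was the one promoter with a site of all 3 factors. BCL6 was listed there in both states of C57BL/6 livers, at −683 bp fed and −641 bp fasted, and in Bcl6 fl/fl livers at −669 bp. PPARα was listed at −641 bp fed and −660 bp fasted, and PPARδ at −709 bp in fed livers and not in fasted ones. The site lies before the curated transcript but inside an intron of a longer, predicted one, so that with the gene record's 5′ end as the TSS it was no promoter site. The stretch around its center holds a DR1 word on the minus strand and the STAT word TTCNNNGAA, both in capitals.
*Rpl36*, chr17:56612621-56612821, plus strand: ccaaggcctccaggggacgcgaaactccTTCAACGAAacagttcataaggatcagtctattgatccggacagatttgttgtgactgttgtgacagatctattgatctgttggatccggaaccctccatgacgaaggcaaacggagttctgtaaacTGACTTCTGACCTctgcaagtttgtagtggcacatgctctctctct

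*Rpl41*, which codes for the shortest protein of the large subunit, had BCL6 and PPARα at one site. PPARα was at −83 bp fed and −117 bp fasted, and BCL6 at −71 bp in fasted C57BL/6 livers and −75 bp in fed Bcl6 fl/fl livers, but not in the fed C57BL/6 list. *Rpl37* had separate sites, BCL6 at −508 bp in fed livers and PPARα at −17 bp in fasted livers. *Mrps24*, a mitochondrial small subunit gene, had BCL6 at −753 bp in fasted livers and −685 bp in fed Bcl6 fl/fl livers, with no PPARα peak in its promoter. *Mrps27*, of the same subunit, had BCL6 at −421 bp fed and −402 bp in Bcl6 fl/fl livers, nearer to the start of *Ptcd2*, which lies 108 bp upstream on the other strand.

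PPARδ sites at ribosomal protein promoters were 4, and 3 of them held no PPARα peak within 200 bp. Over all genes 84.6% of PPARδ promoter sites held PPARα. *Rps19*, a small subunit gene, was the only one with PPARδ in both states, at −40 bp fed and −17 bp fasted from the nearer of its TSSs. Its PPARα peaks lay at a separate site, at −324 bp fed and −292 bp fasted. *Rpl19*, of the large subunit, had PPARδ at −89 bp in fasted livers only, in an intron of its own gene record. *Mrps27* had it at −19 bp in fed livers only. With so few sites these are single cases.

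In fed Bcl6 fl/fl livers, 30 of 57 BCL6 peaks near ribosomal protein genes (52.6%, 39.9 to 65%) had a peak of the fed C57BL/6 list within 200 bp, against 60.4% of all peaks of that list. Of the 45 C57BL/6 peaks 30 (66.7%, 52.1 to 78.6%) had one of the floxed list, against 70.2%. Promoter peaks of BCL6 at *Mrpl13*, *Mrpl39* and *Mrpl43* were in the floxed list and not in the C57BL/6 lists, at −429, −580 and −106 bp. Those at *Mrpl13* and *Mrpl43* lay nearer to the TSS of another gene and are not among the 57 peaks. On the other strand *Mtbp* starts 96 bp upstream of *Mrpl13* and *Twnk* 116 bp upstream of *Mrpl43*. Both lists shared *Rpl36*, *Rpl37* and *Mrps27*. Line, pool and depth differ together between these lists and cannot be told apart.

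Some of the sites sat inside other genes. Of 170 joined sites, 55 were in promoters, 53 in introns, 55 between genes and 7 in exons, and 70 lay 10 to 100 kb from the TSS (41.2%, all 55.2%). By position alone, promoter sites included, 36 were inside the ribosomal protein gene itself, 38 inside another gene (22.4%) and 96 in neither. Shares in introns, exons, between genes or inside genes were not counted over all joined sites, so these counts have no background. For sites in a neighbour's intron the nearest TSS names a ribosomal protein gene by distance only.

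*Rpl32l* had the most sites, 7, of which 6 were in introns of *Map7* around it and 1 in its own exon. All 7 lay between −6126 and +34964 bp, and 6 of them were listed for PPARα. *Rpl31* had 6 sites, 4 of them in introns of *Npas2*, a clock transcription factor gene upstream, from −79248 to −42411 bp. The sites at −79248 and −49696 bp were listed for BCL6 and PPARα in both states, and those at −65370 and −42411 bp for PPARα in fed livers only. Its own first intron held PPARα at +1047 bp in fasted livers only.

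*Rpl27a* had 5 sites, all in introns of the neighbour annotated as *Denn2b*, from +5747 to +48005 bp. *Mrpl37*'s 5 sites all lay in introns 4 and 5 of *Ssbp3*, a gene for a single-stranded DNA binding protein, from +46098 to +64224 bp, and each was listed for BCL6. *Rps12*, a small subunit gene, had a PPARα promoter site at −94 bp in fasted livers only and 4 sites of BCL6 with PPARα from +32793 to +95699 bp, between genes. Of those 4, the sites at +33423 and +95699 bp were listed in fed livers only for both factors.

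*Mrpl1* had 5 sites, among them a PPARα site at −41 bp in both states, BCL6 at −3045 bp in both states and a PPARδ site at +12113 bp in its second intron in fed livers only. *Mrpl14*, *Mrpl15*, *Mrpl39*, *Rps6* and *Mrps33* tied at 4 sites, and the first 3 by name are described. *Mrpl14* had its 4 sites from +8095 to +22045 bp, all with PPARα in fed livers, of which 2 held PPARδ and the other 2 BCL6. *Mrpl15* had 4, with PPARα alone at +38 bp in its 5′ UTR in fasted livers only and BCL6 with PPARα at the other 3. *Mrpl39* had PPARα alone at −117 bp in fed livers only, and BCL6 with PPARα at −9717, −10848 and +84434 bp. *Rps27a* had 5 sites, all upstream, with PPARα alone at −209 bp in fasted livers only and at −1537 bp in fed livers only, and BCL6 alone at −51136 bp in fed livers only.

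**Figure D4:**
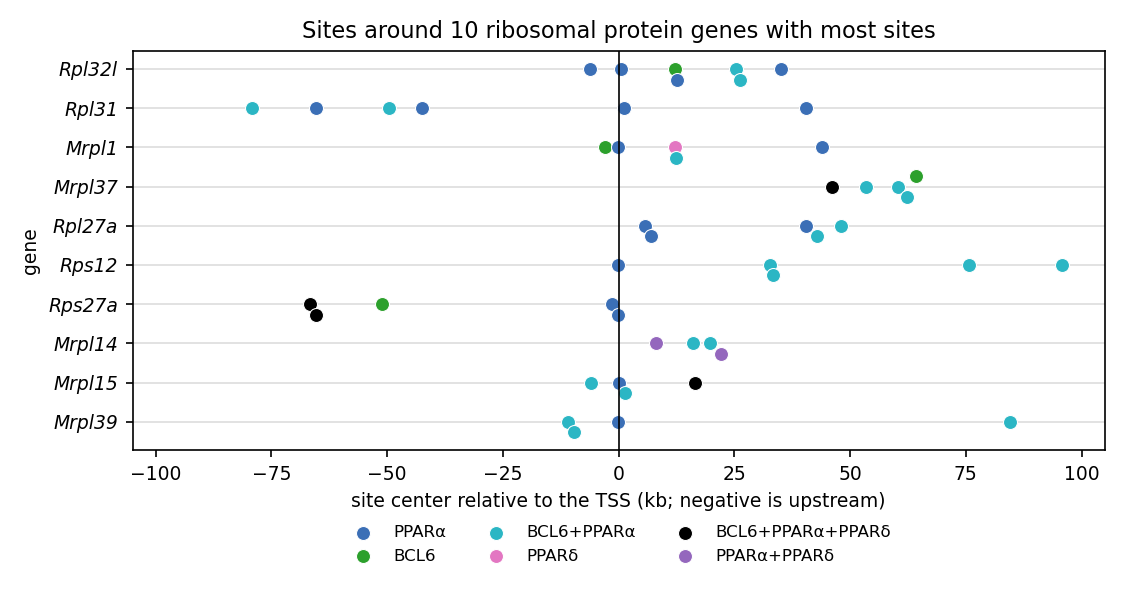
Joined sites around 10 ribosomal protein genes with most sites (rows; *Rps6* and *Mrps33* also had 4 and are not drawn), by the distance of the center from the TSS in kb (x axis, negative upstream) and colored by the factors listed there in either state; points closer than 2.5 kb are set apart vertically. Sites of *Mrpl37* and *Rpl27a* all lie downstream of the TSS and those of *Rpl31* reach from −79248 to +40518 bp.

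Sites of all 3 factors, besides *Rpl36*, were near *Rpl37a* (+14832 bp), *Mrpl15* (+16592 bp), *Rpl11* (−42315 bp), *Mrpl37* (+46098 bp) and *Rps27a* (−65379 and −66691 bp). BCL6 and PPARα were listed in fed livers at each of them. PPARδ was listed in fed livers at all but the *Mrpl37* site, where it was in the fasted list. *Rps27a* codes for a fusion of ubiquitin and a small subunit protein, and *Rpl11* for a large subunit protein that binds the p53 regulator MDM2. A BCL6 word, TTCCTAGAA with up to 1 mismatch on either strand, lay within 100 bp of the center of 9 of 57 BCL6 sites near these genes (15.8%, 8.54 to 27.4%), the same share as of all BCL6 sites (15.8%). Examples on the plus strand, with the word in capitals, are the *Mrpl15* site of all 3 factors and a site in intron 4 of *Mrps27*, 24994 bp from its TSS, listed for BCL6 in both states.
*Mrpl15*, chr1:4769081-4769111, plus strand: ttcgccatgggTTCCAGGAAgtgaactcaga
*Mrps27*, chr13:99369778-99369808, plus strand: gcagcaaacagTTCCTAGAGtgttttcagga

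Other genes of translation were counted from lists chosen with these data known. Of 33 elongation and initiation factor genes, 10 (30.3%, 17.4 to 47.3%) had a PPARα promoter peak in fed and 19 (57.6%, 40.8 to 72.8%) in fasted livers. *Eef1a1* and *Eef2*, the main elongation factors, and *Eif4e*, which binds the mRNA cap, had it in both states, and *Eif5a* and *Pabpc1*, the poly(A) binding protein, in fasted livers only. Over all genes a PPARα promoter peak was found at 8.00% fed and 19.5% fasted. Ribosome biogenesis genes had it at 6 fed (18.8%, 8.89 to 35.3%) and 11 fasted (34.4%, 20.4 to 51.7%) of 32. Genes of translation signalling had it at 2 (13.3%, 3.74 to 37.9%) and 7 (46.7%, 24.8 to 69.9%) of 15. Other genes of mitochondrial translation had it at 4 (16.7%, 6.68 to 35.9%) and 8 (33.3%, 18.0 to 53.3%) of 24. The share of all genes lay inside the interval for fed signalling and for mitochondrial translation in both states. Of the ribosomal proteins with other symbols, 1 of 7 cytosolic ones had it fed (14.3%, 2.57 to 51.3%) and 3 fasted (42.9%, 15.8 to 75.0%). Both intervals held the share of all genes. Of the mitochondrial ones, 0 of 6 had it in either state (upper bound 39.0%). In translation signalling *Mtor*, the growth kinase, was listed in both states and *Rptor*, its partner, in fasted livers only. As genes of another mitochondrial complex, those of the respiratory chain and ATP synthase had a promoter peak at 11 (12.0%, 6.81 to 20.2%) fed and 28 (30.4%, 22.0 to 40.5%) fasted of 92. The intervals of this set overlap those of the ribosomal protein genes in both states.

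**Figure D5:**
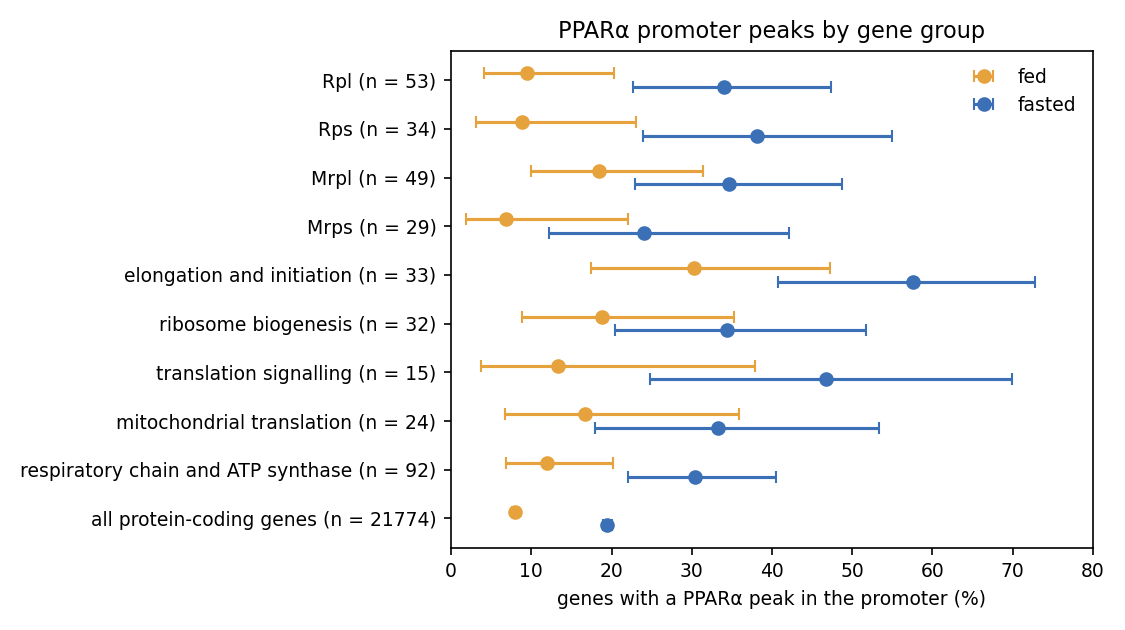
Share of genes with a PPARα peak center in the promoter (%, x axis) in fed and fasted livers for each ribosomal protein family, for other gene lists of translation and for the respiratory chain; bars are 95% Wilson intervals. The share is higher in the fasted than in the fed list for each gene group drawn, with 57.6% for elongation and initiation genes and 19.5% for all protein-coding genes in fasted livers.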

How the data were processed

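Per the study's methods, the authors mapped reads to the mm10 genome using Bowtie. Reads with a unique place were kept, 1 for each start position. HOMER then gave peaks from the pooled replicates of a condition, with input as the background, and the authors filtered the peaks with DESeq2. The deposited lists hold 3 columns, chromosome, start and end, with no count or score, so positions were used as they stand and the order of peaks was not used. The depth is unknown from these lists.

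Genes and TSSs of curated transcripts came from RefSeq GRCm38.p6 (all 165 members had one). Counts, Wilson intervals and exact or mismatch word searches were made in Python 3.11.15 and tested on simulated peaks and sequences with known answers. The symbol rule that gives the members used no value from these livers. It and the gene lists were chosen with earlier results of these data known. Each list pools 3 libraries, so replicate values, tests between groups and depths per sample are not given here. The genes named are those with a BCL6 or PPARδ promoter peak in any list, the 10 with most joined sites (ties in order of name), the 10 with a fasted-only and with a fed-only PPARα promoter site nearest the TSS, and those with a site of all 3 factors. Some genes that the rule gives are not reported here. *Mrpl41*, *Rps16*, the 16 genes with a PPARα promoter peak in both states, neighbouring genes and the genes of other lists were named after their values were seen. Other reaches, joining distances, promoter windows and TSS choices were tried as alternatives. The other libraries of the series were not used here.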

Additional observations from a re-analysis of the deposited data

How the results depend on the processing

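Of 143 values recomputed under another setting, 117 stayed within 1.5 times the count or inside the interval of the share, and 26 moved. A reach of 10 kb in place of 100 kb left 15, 12 and 25 BCL6 peaks (fed, fasted, fed Bcl6 fl/fl), 35 and 76 PPARα peaks and 6 and 3 PPARδ peaks near ribosomal protein genes, and raised the fasted-only share of PPARα sites to 58.8%, with 43.6% of all PPARα sites. With the gene record's 5′ end as the only TSS, 0% of PPARδ sites were fasted only, 0% of fed BCL6 and 14.7% of fed PPARα peaks were in promoters, and 1 gene (0.606%, all genes 0.721%) had a fasted PPARδ promoter peak. A promoter of 1000 bp on either side gave 5 genes (3.03%, all genes 2.70%) for fed PPARδ. A promoter from 5000 bp upstream to 1000 bp downstream gave 10, 6 and 19 genes for the BCL6 lists (6.06%, 3.64% and 11.5%, all genes 7.21%, 5.10% and 11.0%) and 5 for fed PPARδ (3.03%, all genes 4.88%), with 22.8% of fed Bcl6 fl/fl peaks inside it. With 500 bp on either side of the TSS, words were in 19.4% (YY1, all promoters 8.35%), 79.4% (SP1, 62.5%), 23% (E-box, 17.0%), 22.4% (TATA, 31.1%), 21.8% (STAT, 23.5%), 20.0% (BCL6, 24.5%), 42.4% (AGGTCA, 41.4%) and 12.1% (DR1, 12.2%) of the promoters. These wider or narrower windows hold more or fewer bases by construction. Over all genes the peak counts at 10 kb, shares of peaks in promoters and the PPARδ fasted-only share were not recomputed. Those values cannot show whether ribosomal protein genes moved apart from other genes. The distances that count as shared between the fed BCL6 lists, the wider promoter for elongation genes and the CpG-rich background were chosen after seeing the data, and the first pair moved no value. No paired analysis was possible because each list pools its replicates, and for the same reason no replicate could be left out. The lists carry no score, so no stricter threshold was run.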
